A study of Mus musculus with 18 samples.

Results

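The 8 genes described here, Spp1, Gpnmb, Cd9, Cd63, Lgals1, Lgals3, Fabp5 and Itgax, were taken by symbol from a table of 18668 genes, as markers of lipid-associated and foamy macrophages. The table held 18 RNA-seq libraries of mouse bone marrow-derived macrophages (BMDM), cells grown from the bone marrow of C57BL6 background mice with M-CSF. Both genotypes lacked Apoe, the gene of apolipoprotein E, and the DKO cells (Apoe-/-/Treml4-/-) also lacked Treml4, a receptor of the TREM family. Each genotype was left with vehicle (PBS) or given oxLDL, low-density lipoprotein that has been oxidized and that macrophages take up, at 10 or 60 µg/ml, for 16 h by the series description and for a longer time by the published methods. Each of the 6 groups had 3 biological replicates, and the animals' age was not given in the sources used here. All groups therefore shared the loss of Apoe, so no value describes an Apoe-sufficient cell, and the culture held no lesion, adipose tissue or other cell partner. In bulk RNA, fewer cells expressing a gene and less of its RNA per cell cannot be told apart.

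Macrophages that take up much lipid, in adipose tissue, in atherosclerotic plaque and in demyelinated brain, are known for a shared set of transcripts that depends in part on the lipid-sensing receptor TREM2. The set joins secreted and surface proteins (osteopontin, GPNMB, CD11c), lipid handling (FABP5), lysosomal and endosomal membrane proteins (CD63) and galectins, lectins that bind β-galactosides. Several of its members are also high in cultured macrophages that have met no added lipid.

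The labels were checked against the targeted genes and marker genes first. Treml4 read 1.86 to 8.39 RPKM (reads per kilobase of transcript, scaled to the reads of the library) in the 9 Apoe-/- libraries and 0 to 0.0116 in the 9 DKO libraries. Apoe, lost in all groups by the labels, still read 0.35 to 4.13 RPKM over the 18 libraries. With no Apoe-sufficient library, this level could not be set against that of an intact gene. The macrophage genes Csf1r, Cd68, Itgam and Adgre1 were at 80.2 RPKM or above in every library, whereas none of 7 lymphocyte markers reached 0.1 RPKM. Sequencing depth, recovered from the size of 1 read in the low values, was 35.0 to 47.7 M counted reads (M, mega). Replicate 2 of Apoe-/- and replicate 3 of DKO were Xist-positive at every treatment (at least 7.25 RPKM, against at most 0.069 elsewhere), Xist being the RNA that coats the inactive X chromosome of female cells, and within a genotype libraries with the same replicate number deviated together. The labels do not state that a replicate number marks 1 animal, so animal below means a replicate number within a genotype. The Xist-positive animals stand apart for several members below, so values are given with and without them.

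The start regions of the members are shown because factors that bind known short motifs are linked to this gene set as background. These are MITF and its relatives TFEB and TFE3, which bind E-box and M-box elements of lysosomal genes, AP-1, and NRF2. RefSeq (GRCm38.p6) gave start regions for 6 of the 8 members, with 7 start sites. Both strands of the 250 bases before each start were searched for the E-box CACGTG, for the M-box core CATGTG, for the AP-1 site TGACTCA and for the core of the antioxidant response element, TGACNNNGC. No match overlapped another, and both matches below are the reverse complement of the letters given. The 4 regions below are those of Lgals3, the member with the largest change, of Gpnmb, and of the 2 members with a match, which is in capitals.
Lgals3, chr14:47373610-47373859, plus strand: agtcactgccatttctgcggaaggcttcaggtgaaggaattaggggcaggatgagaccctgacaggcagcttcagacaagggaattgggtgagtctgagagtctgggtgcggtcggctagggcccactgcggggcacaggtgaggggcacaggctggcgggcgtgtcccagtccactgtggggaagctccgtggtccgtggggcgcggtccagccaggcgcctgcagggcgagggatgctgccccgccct
Gpnmb, chr6:49036268-49036517, plus strand: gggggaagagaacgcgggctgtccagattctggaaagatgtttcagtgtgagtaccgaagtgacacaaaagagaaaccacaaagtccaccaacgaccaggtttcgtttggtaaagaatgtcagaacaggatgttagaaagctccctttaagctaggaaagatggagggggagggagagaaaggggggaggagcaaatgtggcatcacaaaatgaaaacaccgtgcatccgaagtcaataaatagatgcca
Cd9, chr6:125494761-125495010, minus strand: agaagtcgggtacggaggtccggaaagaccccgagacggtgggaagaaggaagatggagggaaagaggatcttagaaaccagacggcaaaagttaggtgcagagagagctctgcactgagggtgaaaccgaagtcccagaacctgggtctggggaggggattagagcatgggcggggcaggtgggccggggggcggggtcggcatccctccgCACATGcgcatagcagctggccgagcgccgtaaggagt
Itgax, chr7:128129300-128129549, plus strand: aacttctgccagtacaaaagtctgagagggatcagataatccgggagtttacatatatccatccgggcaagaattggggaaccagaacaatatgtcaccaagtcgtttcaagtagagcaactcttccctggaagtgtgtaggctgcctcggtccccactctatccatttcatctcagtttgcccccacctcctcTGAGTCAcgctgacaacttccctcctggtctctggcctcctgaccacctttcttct

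Cd9 held the M-box core at bases -38 to -33 before its start, a motif found in 12.3% of 32851 promoters of the same length. Itgax held the AP-1 site at -56 to -50, found in 4.46%. The windows of Lgals3, Gpnmb, Cd63 and both Spp1 starts held none of the 4 motifs, including the E-box (6.02% of promoters) and the antioxidant element core (10.2%). The windows of Lgals3, Cd63 (chr10:128909095-128909344) and the second Spp1 start (chr5:104435942-104436191) lie inside the genes at the positions given below. The bases before the outermost annotated starts of Lgals3 and Cd63 were therefore not searched. A match is a description of letters only.

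In the annotation of the build (GENCODE M21, GRCm38/mm10), the 8 genes are protein-coding and lie on 7 chromosomes. Spp1 is at chr5:104435118-104441050, Lgals3 at chr14:47367751-47386160, Lgals1 at chr15:78926725-78930465, Fabp5 at chr3:10012548-10016607, Cd63 at chr10:128900989-128912822 and Itgax at chr7:128129547-128150657, all on the plus strand. Gpnmb (chr6:49036546-49070929, plus strand) and Cd9 (chr6:125460266-125494791, minus strand) share a chromosome but not a neighbourhood. Cd9, Cd63, Lgals1 and Fabp5 have annotated pseudogene copies, 2 non-coding genes lie on the strand opposite Cd9, and Gm42793 overlaps Spp1 on the same strand, so the division of reads between these and the members is uncertain.

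As levels per kilobase, the members differed widely in untreated Apoe-/- cells. Spp1, the gene of osteopontin, led with 2639 ± 387 RPKM (SD, n = 3), followed by Lgals3 with 1714 ± 185, Lgals1 with 1166 ± 95.4, Gpnmb with 713.9 ± 94.2, Cd9 with 216.7 ± 18.8, Cd63 with 145.4 ± 19.0, Fabp5 with 47.03 ± 5.40 and Itgax with 5.24 ± 2.71. No neighbours in that order overlapped in their 3 libraries. At oxLDL 60 µg/ml the first places were taken by Lgals3 (2911 ± 201) and Spp1 (2527 ± 502), whose ranges overlapped. In DKO cells at that dose Gpnmb (1071 ± 252) and Lgals1 (1196 ± 56.1) also overlapped. Spp1 ranked between 9 and 16 and Lgals3 between 10 and 15 of all genes in every library, whereas Itgax ranked between 5492 and 8621. Together the 8 genes made 1.49% to 2.23% of the summed RPKM of a library.

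**Figure D1:**
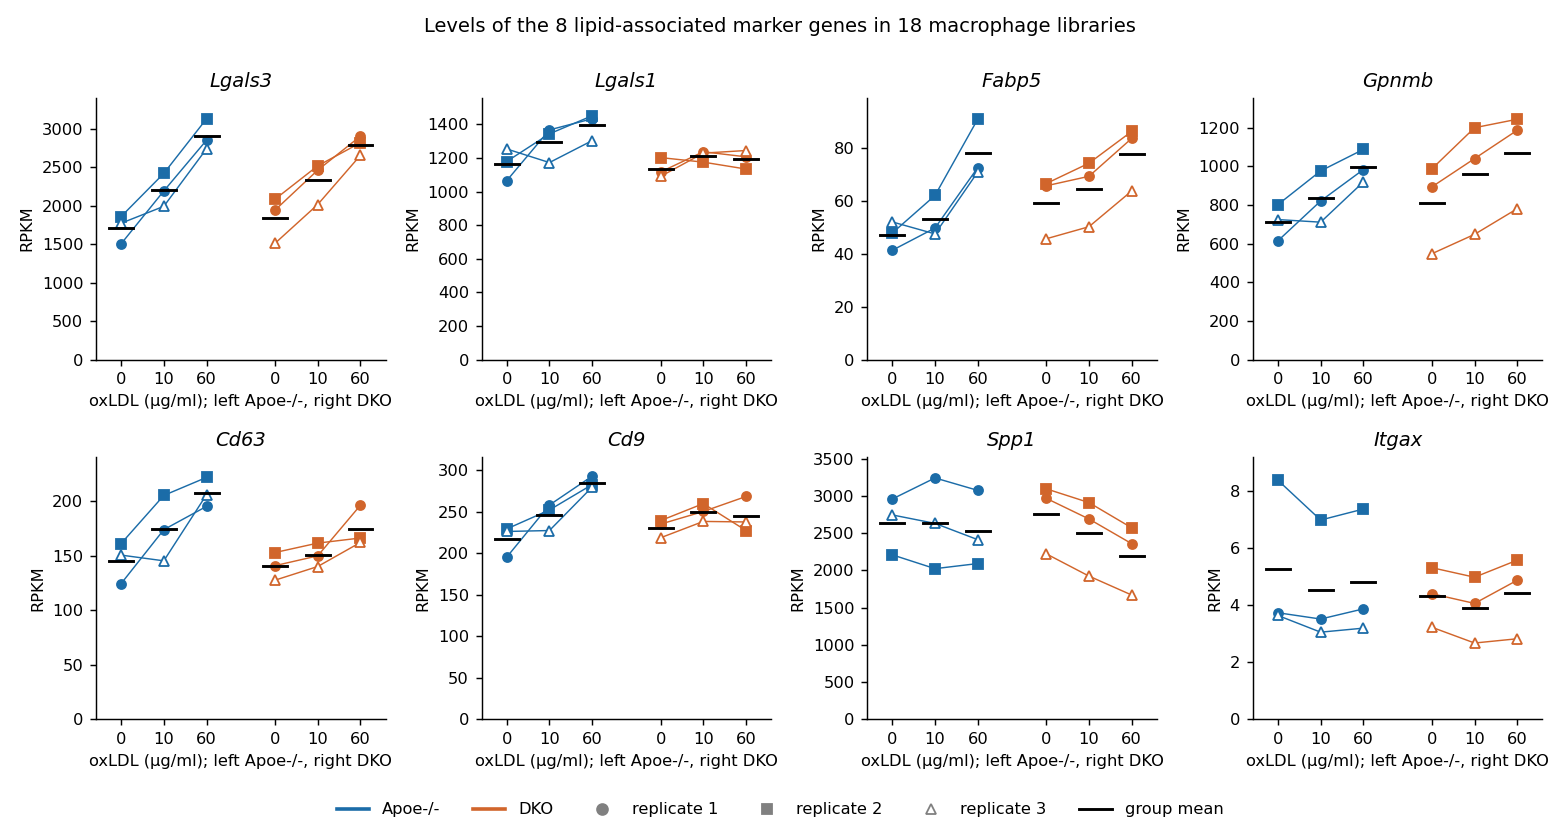
Level in RPKM (vertical axes, each from 0) of the 8 members in 18 libraries by oxLDL dose (horizontal axes, µg/ml), Apoe-/- in blue and DKO in orange. Lines join libraries with the same replicate number, marker shapes give that number and black bars are means of 3. Lgals3 and Fabp5 climb with dose in every animal between 10 and 60 µg/ml, while Itgax in both genotypes and Spp1 in Apoe-/- cells are spread more by animal than by dose, and Spp1 in DKO cells is lower at 60 µg/ml than untreated in 3 of 3 animals.

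The first question was how the marker genes answered high oxLDL in Apoe-/- cells. Of the 8 genes, 3 rose at 60 µg/ml against untreated cells and none fell: Lgals3 1.70-fold, Fabp5 1.66-fold and Cd63 1.44-fold. A gene is called when its adjusted p, from limma with Benjamini-Hochberg adjustment over the 12838 genes tested, is under 0.05 and its fold change is at least 1.4, on the log2(RPKM + 0.1) scale. All 8 members passed the filter on low values. Over all genes 7.13% were called higher and 6.78% lower in this comparison. The median log2 change was 0.44 over the members and 0.06 over all genes tested.

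Lgals3, the galectin that gathers on damaged endosomes and lysosomes, read 1506, 1861 and 1775 RPKM in the 3 untreated Apoe-/- libraries and 2856, 3134 and 2744 RPKM at 60 µg/ml. The groups did not overlap, and each animal was higher, by 0.92, 0.75 and 0.63 on the log2 scale. The log2 change was 0.77 (SE 0.13, adjusted p = 0.000175). Lgals1, the other galectin of the set, read 1065, 1179 and 1254 RPKM untreated and 1434, 1452 and 1304 RPKM at 60 µg/ml. These groups did not overlap either, but the log2 change of 0.26 (SE 0.08, adjusted p = 0.0233) was under the fold limit.

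Fabp5, a cytosolic carrier of fatty acids, read 41.3, 47.8 and 52.0 RPKM untreated and 72.5, 90.9 and 70.9 RPKM at 60 µg/ml, with a log2 change of 0.73 (SE 0.17, adjusted p = 0.00390). All libraries at 60 µg/ml lay above all untreated ones. Cd63, a tetraspanin of late endosomes and lysosomes, read 124, 161 and 151 RPKM untreated and 195, 222 and 206 RPKM at 60 µg/ml, again without overlap. Its log2 change was 0.52 (SE 0.12, adjusted p = 0.00304). Rescaling the libraries by their median ratio lowered this to 0.46, under the fold limit, as did leaving out untreated replicate 1 (0.41) or replicate 2 at 60 µg/ml (0.47). Cd9, the surface tetraspanin of the set, read 195, 229 and 226 RPKM untreated and 293, 282 and 280 RPKM at 60 µg/ml. Its 3 treated libraries lay close together and above all untreated ones, at a log2 change of 0.40 (SE 0.08, adjusted p = 0.000725) under the fold limit.

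Gpnmb, a transmembrane glycoprotein of lysosomes and the cell surface and a known MITF target, read 615, 802 and 725 RPKM untreated and 984, 1088 and 920 RPKM at 60 µg/ml. The groups did not overlap, and the log2 changes by animal were 0.68, 0.44 and 0.34. The fit across groups gave 0.49 (SE 0.24, adjusted p = 0.136), which was not called. With the replicate number as a block the same change was called (adjusted p = 0.00014), beside 7.86% of all genes called higher in that fit. The change was 1.4-fold, at the fold limit itself, and ran from 0.38 to 0.58 on the log2 scale when single libraries were left out. It was also called when the fit held just these 2 groups (adjusted p = 0.0157) and without the Xist-positive libraries (0.51, adjusted p = 0.00516), and over all alternatives its adjusted p ran from 0.00014 to 0.343.

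Spp1 and Itgax did not follow the others. Spp1 read 2960, 2210 and 2746 RPKM untreated and 3076, 2093 and 2414 RPKM at 60 µg/ml, a log2 difference of -0.07 (SE 0.22, 95% interval -0.52 to 0.38). Itgax, the gene of the integrin chain CD11c, read 3.72, 8.36 and 3.63 RPKM untreated and 3.86, 7.35 and 3.19 RPKM at 60 µg/ml, a log2 difference of -0.10 (SE 0.39, interval -0.92 to 0.71). Treated and untreated libraries overlapped for both genes. With the replicate number as a block the intervals narrowed to -0.24 to 0.10 for Spp1 and -0.26 to 0.05 for Itgax, and neither gene was called (adjusted p = 0.524 and 0.278). With 3 libraries against 3, an exact two-sided permutation test of a single gene cannot go under p = 0.10, and all 6 members without overlap reached that value. The share of all genes without overlap was not computed, so this count of members has no background beside it. In limma 5156 of all 12838 genes tested had an unadjusted p under 0.05 in this comparison, among them 5 members.

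In DKO cells 1 of the 8 members, Lgals3, rose at 60 µg/ml and none fell, against 4.87% of all genes called higher and 7.31% called lower. The median log2 change was 0.20 over the members and -0.06 over all genes. Lgals3 read 1944, 2087 and 1513 RPKM untreated and 2908, 2822 and 2659 RPKM at 60 µg/ml, with no overlap and a log2 change of 0.61 (SE 0.13, adjusted p = 0.00159). Each animal was higher, by 0.58, 0.44 and 0.81 on the log2 scale. Without untreated replicate 3 alone, with the same replicate kept at 60 µg/ml, the change was 0.47, under the fold limit. Leaving out all libraries of that replicate, as Xist-positive, did not change the count of members called. Fabp5 read 65.6, 66.5 and 45.6 RPKM untreated and 83.6, 86.2 and 63.7 RPKM at 60 µg/ml. The groups overlapped through replicate 3, which was lowest in both, while each animal was higher by 0.35, 0.37 and 0.48 on the log2 scale. The log2 difference of 0.40 (SE 0.17, adjusted p = 0.103) was not called. Without replicate 3 at 60 µg/ml alone it was 0.54 (adjusted p = 0.0456), past both limits. That fit kept the low untreated library of the same replicate, so it does not show a larger response. Leaving out single libraries gave log2 differences from 0.22 to 0.54. Over the alternatives the adjusted p ran from 0.000651 to 0.400.

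Gpnmb in DKO cells read 894, 987 and 548 RPKM untreated and 1188, 1244 and 781 RPKM at 60 µg/ml, higher in 3 of 3 animals at a log2 difference of 0.42 (adjusted p = 0.220). Cd63 read 141, 153 and 128 RPKM untreated and 197, 166 and 162 RPKM at 60 µg/ml, without overlap, at 0.32 (adjusted p = 0.0639). Spp1 read 2970, 3098 and 2224 RPKM untreated and 2360, 2573 and 1669 RPKM at 60 µg/ml, lower in 3 of 3 animals at a log2 difference of -0.34 (adjusted p = 0.282). With the replicate block the adjusted p of Gpnmb, Fabp5, Cd63 and Spp1 was 0.000656, 0.000651, 0.0101 and 0.00346, and all 4 stayed under the fold limit. Over the alternatives the adjusted p ran from 0.000656 to 0.680 for Gpnmb, from 0.0101 to 0.235 for Cd63 and from 0.00346 to 0.709 for Spp1. Cd9 (0.08, 95% interval -0.08 to 0.24), Lgals1 (0.07, -0.10 to 0.25) and Itgax (0.01, -0.81 to 0.83) were not called.

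**Figure D2:**
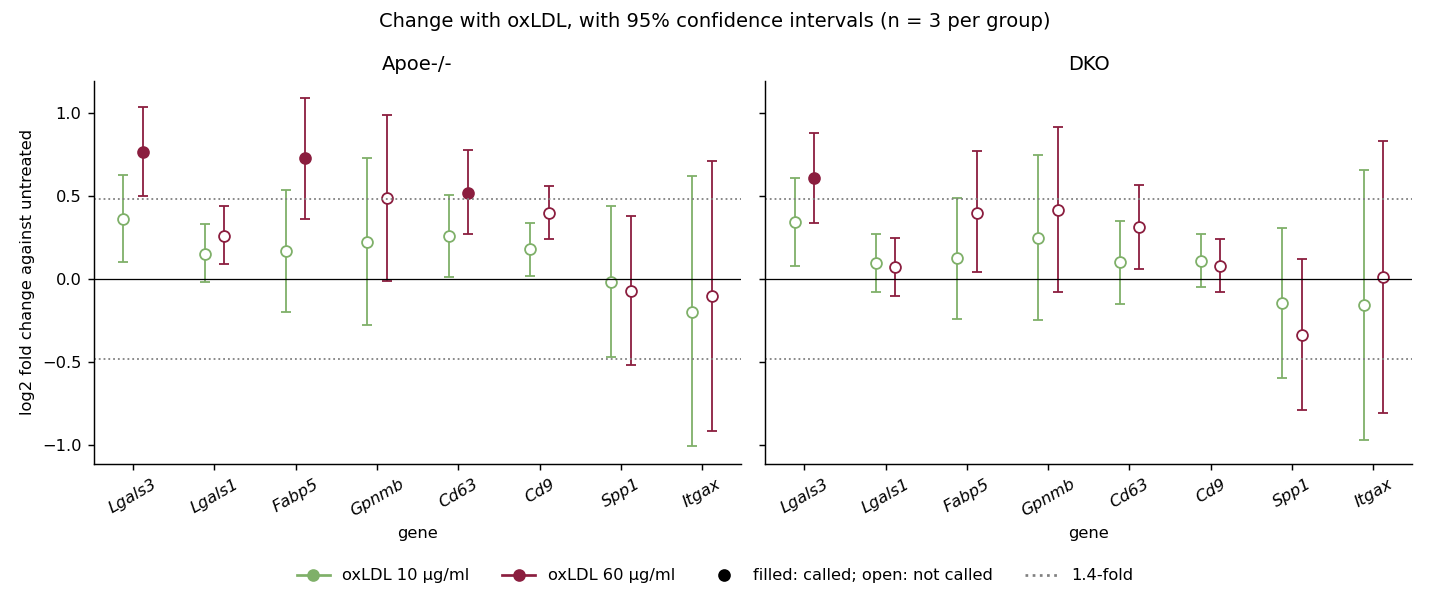
Log2 fold change against untreated cells (vertical axis) for each member at 10 µg/ml (green) and 60 µg/ml (red) oxLDL in Apoe-/- (left) and DKO cells (right), with 95% confidence intervals and n = 3 per group. Filled points are called, which holds for Lgals3, Fabp5 and Cd63 in Apoe-/- and for Lgals3 in DKO at 60 µg/ml, and dotted lines mark 1.4-fold.

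The low dose moved no member past the limits in either genotype. At 10 µg/ml 0.748% of all genes were called higher and 2.04% lower in Apoe-/- cells, and 0.569% higher and 1.69% lower in DKO cells. Lgals3 read 2195, 2423 and 1995 RPKM in Apoe-/- and 2466, 2522 and 2018 RPKM in DKO cells at this dose, log2 differences from untreated of 0.36 (SE 0.13, adjusted p = 0.0976) and 0.34 (SE 0.13, adjusted p = 0.186), the largest of the 8 in both. With the replicate block in limma the adjusted p of Lgals3 was 0.0114 in Apoe-/- and 0.0217 in DKO cells, both under the fold limit. Over the alternatives it ran from 0.0114 to 0.293 and from 0.0217 to 0.730. Of the 8 members 2 were higher and 1 lower in all 3 Apoe-/- animals, and 5 were higher and 2 lower in all 3 DKO animals. How many of all genes kept a direction in all 3 animals was not counted. In Apoe-/- cells 3 members had an unadjusted p under 0.05 in limma, beside 2871 of all 12838 genes tested. In DKO cells 1 member did, beside 1691 of all genes.

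Between 10 and 60 µg/ml, Fabp5 was the member that rose in Apoe-/- cells. It read 49.7, 62.0 and 47.5 RPKM at 10 µg/ml and 72.5, 90.9 and 70.9 RPKM at 60 µg/ml, so that most of its response lay between the doses (log2 change 0.56, SE 0.17, adjusted p = 0.0415). Each animal moved by nearly the same step, 0.54, 0.55 and 0.58 on the log2 scale. The call was lost without a filter on low values (adjusted p = 0.0897) and without any of 5 of the 6 libraries, replicates 1 and 3 at 10 µg/ml and replicates 1, 2 and 3 at 60 µg/ml (log2 changes 0.44 to 0.62). With the replicate block its adjusted p was 4.92e-05, and over the alternatives it ran from 4.92e-05 to 0.173. Lgals3 differed by 0.40 between the doses (SE 0.13, adjusted p = 0.0433), under the fold limit. In this comparison 2.91% of all genes were called higher and 3.54% lower. In DKO cells no member was called, against 1.92% of all genes higher and 3.74% lower. This split became 361 genes higher and 360 lower, from 246 and 480, when libraries were rescaled by their median ratio. In the limma fit without the replicate block no member had an unadjusted p under 0.05 in DKO cells either, beside 3690 of all 12838 genes tested. Lgals3 and Fabp5 differed there by 0.27 and 0.28, each higher in 3 of 3 animals. Over the alternatives the adjusted p in limma ran from 0.0393 to 0.455 for Lgals3 and from 0.0148 to 0.739 for Fabp5.

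The next question was whether loss of Treml4 altered the marker genes. None of the 8 members was called between DKO and Apoe-/- cells at any treatment. At an unadjusted p under 0.05 in limma there were 0 members in untreated cells, 0 with oxLDL 10 µg/ml and 2 with 60 µg/ml. Of all 12838 genes tested, 2224, 1252 and 1011 were under that p in the same order. Over all genes 0.21% were called between the genotypes in untreated cells, 0.0857% with oxLDL 10 µg/ml and 0.125% with 60 µg/ml, in either direction. In untreated cells the split was 22 higher and 5 lower, and 14 and 9 after rescaling by the median ratio. The difference furthest from 0 in untreated cells was that of Fabp5, at 0.32 on the log2 scale (95% interval -0.05 to 0.68, adjusted p = 0.351). At 60 µg/ml Cd9 differed by -0.22 (interval -0.39 to -0.06), Lgals1 by -0.22 (-0.40 to -0.05) and Cd63 by -0.25 (-0.50 to 0.00), and their adjusted p were 0.503, 0.540 and 0.635. In those libraries Cd9 read 293, 282 and 280 RPKM in Apoe-/- and 268, 227 and 237 RPKM in DKO cells, and Lgals1 read 1434, 1452 and 1304 against 1207, 1134 and 1245 RPKM. Neither pair of groups overlapped, and neither pair was past the limits. Spp1, Gpnmb, Cd63, Lgals3, Fabp5 and Itgax overlapped between genotypes at every treatment.

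The change with oxLDL was not shown to depend on genotype for any member. In the interaction of genotype with the high dose 0.0156% of all genes were called, and in that with the low dose 0% (0 of 12838 in limma, with 245 at an unadjusted p under 0.05). At an unadjusted p under 0.05 in limma there was 1 member, Cd9, at the high dose and 0 at the low dose. At the high dose 1253 of all genes tested were under that p. The interaction was furthest from 0 for Fabp5 (-0.33, 95% interval -0.84 to 0.19) and Cd9 (-0.32, interval -0.55 to -0.09, adjusted p = 0.507). Of the 8 genes 7 had a negative value at the high dose, beside a median of -0.20 for the members and -0.11 for all genes tested, and rescaling by the median ratio brought the median of all genes to 0.005 and turned Gpnmb from -0.07 to 0.06.

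The genotype difference moved with the Xist-positive animals. Without them, Gpnmb and Fabp5 were called higher in DKO cells when untreated, at log2 differences of 0.49 (adjusted p = 0.0317) and 0.51 (adjusted p = 0.00975), beside 1.78% of all genes called higher. With oxLDL 10 µg/ml they were called higher by 0.55 (adjusted p = 0.0449) and 0.56 (adjusted p = 0.0147), beside 0.553% of all genes. These fits compare 2 libraries with 2. At 60 µg/ml the values were 0.35 and 0.24 and no member was called. Between the single Xist-positive animals of each genotype the differences had the other sign, -0.55 for Gpnmb and -0.07 for Fabp5 in untreated cells and -0.48 and -0.51 at 60 µg/ml. Over the alternatives the adjusted p of Gpnmb in untreated cells ran from 0.0317 to 0.981 and that of Fabp5 from 0.00975 to 0.721, and with oxLDL 10 µg/ml they ran from 0.0449 to 0.996 and from 0.0147 to 0.967. In the oxLDL comparisons, leaving out the Xist-positive libraries changed the call of Gpnmb at 60 µg/ml in Apoe-/- cells, given above, and no other count of members called. The part of sex and that of the individual animal cannot be told apart, since there was 1 Xist-positive animal per genotype.

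**Figure D3:**
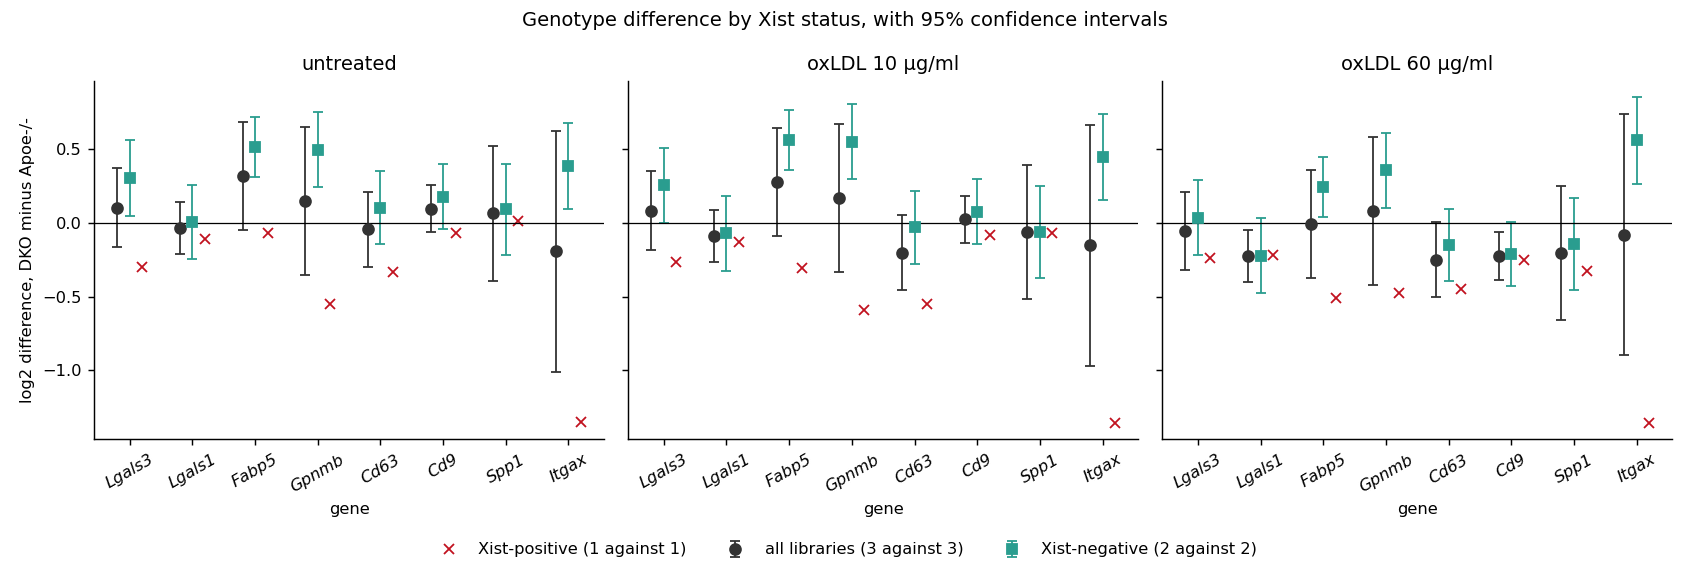
Log2 difference DKO minus Apoe-/- (vertical axis) for each member in untreated cells and at 10 and 60 µg/ml oxLDL: all libraries (black circles), Xist-negative libraries (green squares), both with 95% confidence intervals, and the Xist-positive pair (red crosses, no interval). For Gpnmb, Fabp5, Lgals3 and Itgax the green squares lie above 0 at each treatment and the red crosses below 0.

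Itgax was the member most set by animal. It read 8.36, 6.97 and 7.35 RPKM in replicate 2 of Apoe-/- at 0, 10 and 60 µg/ml, and between 2.67 and 5.57 RPKM in every library of the other animals. In Apoe-/- cells 96.9% of the sum of squares of its log2 values lay between replicate numbers and 2.32% between doses, and in DKO cells 93.2% and 4.25%. Spp1 was alike in Apoe-/- cells, with 92.9% between replicate numbers, where replicate 2 was lowest at every dose, and 75.5% in DKO cells, where replicate 3 was lowest. Gpnmb and Fabp5 differed by genotype in this respect. In Apoe-/- cells dose took 63.0% for Gpnmb and 79.8% for Fabp5, whereas in DKO cells replicate number took 79.8% and 64.8%, with replicate 3 lowest throughout. Lgals3 was divided by dose in both, at 88.9% in Apoe-/- and 74.7% in DKO cells. These shares are a description of 9 libraries per genotype.

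**Figure D4:**
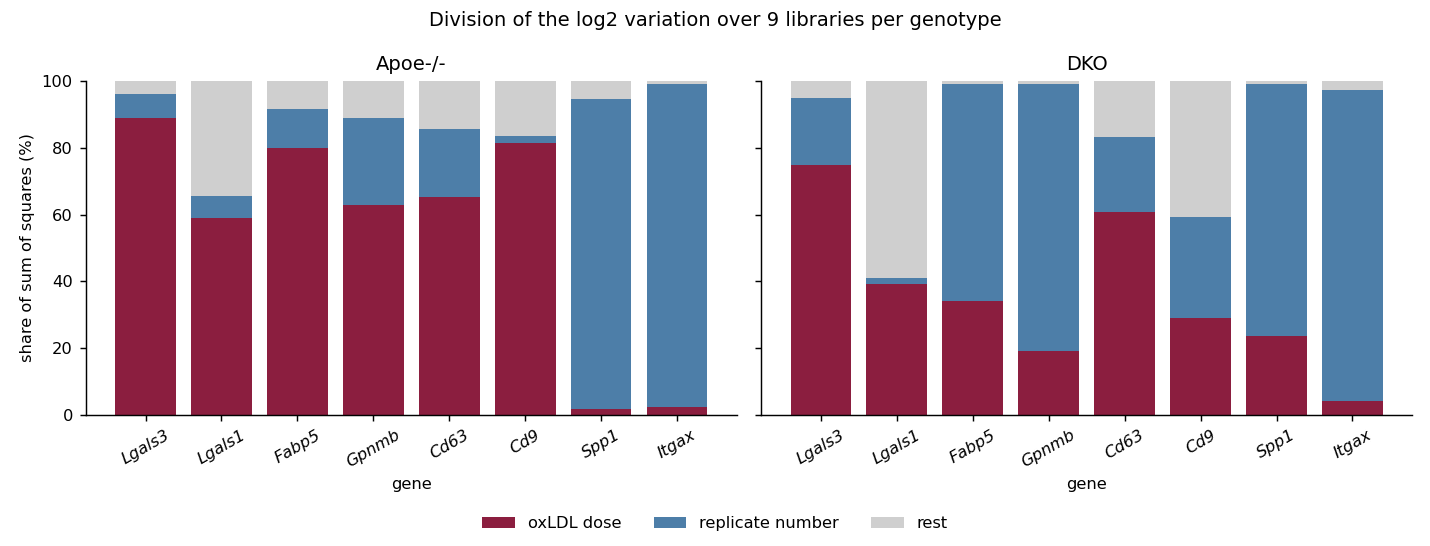
Share of the sum of squares of log2(RPKM + 0.1) over the 9 libraries of a genotype (vertical axis, percent) that lies between oxLDL doses (red), between replicate numbers (blue) and in the rest (grey), for each member in Apoe-/- (left) and DKO cells (right). Dose takes 88.9% for Lgals3 and replicate number 96.9% for Itgax in Apoe-/- cells.

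Correlations over the 18 libraries are given as a description, since the libraries share animals, doses and scaling. Gpnmb and Fabp5 had a Pearson r of 0.90, Lgals3 and Fabp5 0.89, Cd9 and Cd63 0.85 and Cd63 and Lgals3 0.84, whereas Spp1 had between -0.19 and 0.17 with each other member. Among 10102 genes with a mean of at least 1 RPKM, those most like Lgals3 were Vps18 (r = 0.98), of the complex that tethers endosomes to lysosomes, and Psen2 (0.97), a subunit of γ-secretase. Those most like Cd63 were Dpp7 (0.96), a lysosomal peptidase, and Atp6v0b (0.93), a subunit of the proton pump of lysosomes. Gpnmb went with Cd22 (0.95) and Mmp12 (0.95), the macrophage elastase, and Fabp5 with Mmp19 (0.93) and Lhfpl2 (0.93). Spp1 went with Csf1 (0.94), the gene of M-CSF, and Ppic (0.89), Cd9 with Maea (0.94) and Uap1l1 (0.93), and Lgals1 with Arpc3 (0.92) and Ppib (0.89). Itgax had the weakest partners, Stard5 (0.80) and Egr2 (0.78).

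Other genes of the lipid-associated programme were described from a list of 24, which includes Apoe, knocked out in all of these cells by their labels. At 60 µg/ml 12 rose and 1 fell in Apoe-/- cells (median log2 change 0.47), and 8 rose and 1 fell in DKO cells (0.36). In both genotypes the risers were led by Abcg1, a cholesterol exporter (2.08 in Apoe-/-, SE 0.24, and 2.79 in DKO, SE 0.24), followed in Apoe-/- cells by Plin2, which coats lipid droplets (1.64, SE 0.12), and Fabp4, the relative of Fabp5 (1.63, SE 0.26, from 6.01 ± 0.0906 to 18.9 ± 2.49 RPKM). These changes were larger than that of any member. Trem2 rose 0.59 on the log2 scale in Apoe-/- cells (SE 0.09, adjusted p = 7.39e-05), from 353.7 ± 42.8 to 531.2 ± 21.0 RPKM, and was 0.42 higher in DKO cells (adjusted p = 0.00200), under the fold limit. Lpl, the lipoprotein lipase, was the gene that fell in both, by 0.81 and by 0.68. At 10 µg/ml 3 of the 24 rose in each genotype, Abcg1, Abca1 and Plin2. None of the 24 was called between genotypes or in an interaction, with 5, 2 and 3 at an unadjusted p under 0.05 in limma between genotypes in untreated cells, at 10 and at 60 µg/ml, and 1 in each interaction.

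**Figure D5:**
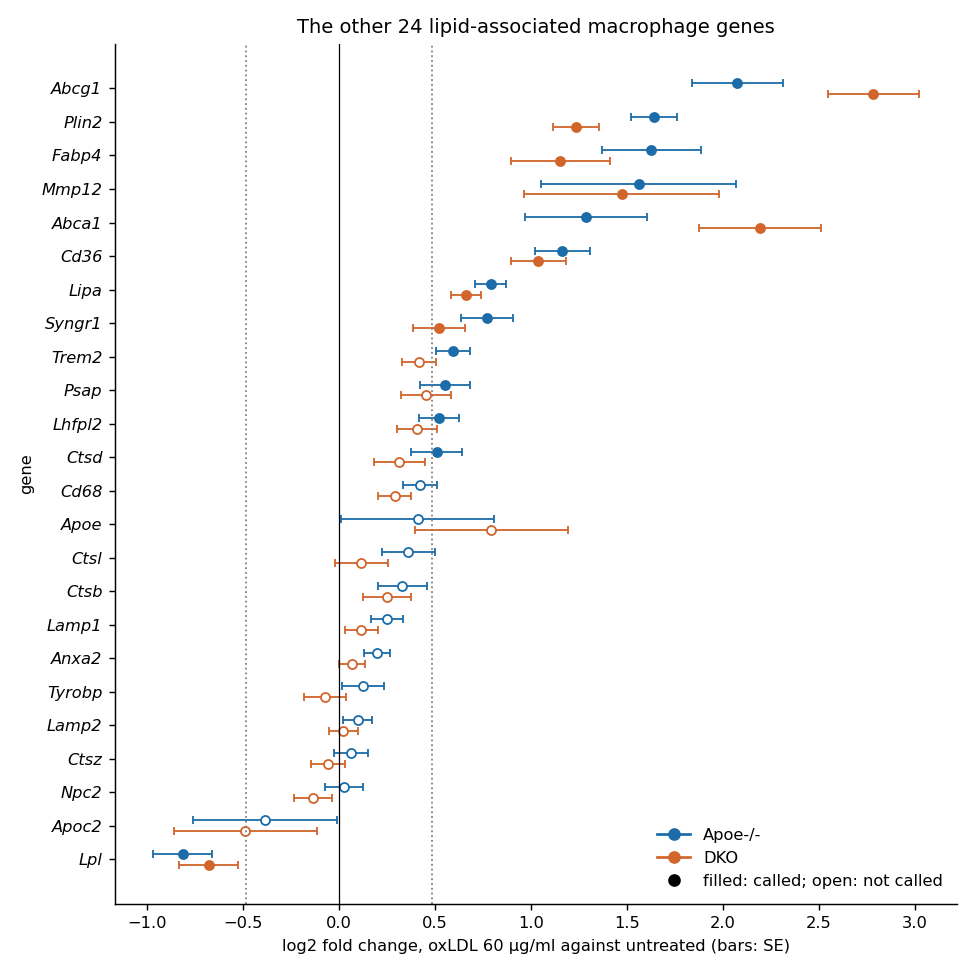
Log2 fold change at oxLDL 60 µg/ml against untreated (horizontal axis, bars are SE) of the 24 other lipid-associated macrophage genes, in Apoe-/- (blue) and DKO cells (orange), with called genes filled and 1.4-fold dotted. Abcg1 is furthest to the right in both genotypes and Lpl furthest to the left.

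The relatives of the members did not move as blocks. Of the list of other galectin genes, which also held Lgals3bp, a secreted partner of galectin-3 and not itself a galectin, 3 were tested. None of them was called in Apoe-/- cells at 60 µg/ml, where Lgals8 read 0.33 and Lgals3bp -0.48 on the log2 scale. Lgals3bp fell in DKO cells, by 0.58 (adjusted p = 9.04e-05). Of 20 other tetraspanins tested, 3 rose in Apoe-/- cells, Tspan13 (0.67), Tspan4 (0.58) and Cd81 (0.58), and Cd82 fell by 0.57, while in DKO cells Tspan13 rose (0.69) and Cd82 fell by 0.68. Of 3 other fatty acid binding proteins, Fabp4 and Fabp7 (0.60) rose and Fabp3 fell by 0.64 in Apoe-/- cells, and Fabp4 rose in DKO cells (1.15). Among the factors linked to lysosomal genes Mitf fell by 0.66 in Apoe-/- and by 0.58 in DKO cells, and Tfeb, Tfe3 and Tfec were not called.

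The receptors of osteopontin and the leukocyte integrins, partners of Spp1 and Itgax, were 12 genes. At 60 µg/ml 2 rose and 4 fell in Apoe-/- cells, and 1 rose and 4 fell in DKO cells. Itga9, a chain that binds osteopontin, rose by 0.96 and 0.89 on the log2 scale in Apoe-/- and DKO cells, at mean levels under 2 RPKM. Itga4, another osteopontin-binding chain, fell by 1.68 and by 1.43, from 11.9 to 3.63 RPKM in Apoe-/- cells. Itgav, which pairs in the vitronectin receptor, fell by 0.56 and by 0.54. Cd44, also a receptor of osteopontin, differed by -0.22 and -0.34 and Itgb2, the β chain that pairs with CD11c, by 0.26 and 0.16, and neither was called.

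Markers of other cells were set beside the members. Of 8 dendritic cell markers, genes of another CD11c-bearing cell, only Xcr1 reached 0.1 RPKM in any library (0.0585 to 0.213), and the 8 summed to 0.147 to 0.465 RPKM over the groups. The 8 macrophage markers summed to 8930 to 11800 RPKM in untreated Apoe-/- libraries and 6530 to 8480 at 60 µg/ml. At that dose 4 of them fell, with Cd14 by 1.61 on the log2 scale, and Mertk rose by 0.68. Of 8 osteoclast markers, 6 were tested and Ctsk rose by 1.09 from 0.87 to 1.98 RPKM in Apoe-/- cells, beside Ocstamp and Mmp9, which fell by 0.85 and by 0.60. Calcr and Oscar, also osteoclast genes, were listed at 0 in 17 and 14 of the 18 libraries. Of 8 neutrophil and precursor markers 7 were tested and none was called, their sums being 27.4 to 43.3 RPKM in untreated Apoe-/- and 33.5 to 75.6 in untreated DKO libraries. The sums of 8 stromal and osteoblast markers ran from 0.634 to 15.2 RPKM in Apoe-/- and from 0.944 to 5.65 in DKO libraries, with none of the 5 tested called. The part of these cells in the members' values was not tested.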

How the data were processed

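Total RNA was sequenced from 18 libraries, 3 per group. The deposited table holds RPKM values per gene, made by the authors after alignment with STAR to mm10 (submitters' processing notes). The published methods list RnaSeqC and Subread (spelled Subred) in the workflow, without saying which of them made the counts. The annotation used is not given in the sources used here. The labels' shared treatment text also describes an LPS protocol that no sample name carries. RPKM are not counts, so the study's count test could not be repeated. Single-read steps in low values (93.6% of 25231 whole within 0.05, against 10.0% by chance) and GENCODE M21 lengths gave depths of 35.0 to 47.7 M reads, at which 3 reads over 1 kb are 0.0629 to 0.0857 RPKM. The gene column held 24 symbols turned into dates, none a member.

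Genes at 0.1 RPKM or more in at least 3 libraries were tested (12838 of 18668) on log2(RPKM + 0.1), a scale that understates changes of low genes, with limma 3.58.1 in R 4.3.3 (1 mean per group, all 6 groups in the fit, variance trend, Benjamini-Hochberg adjustment over all genes tested). Errors of log2 values are SE of that fit. Calls needed adjusted p under 0.05 and a fold change of 1.4, the study's limits. Confidence intervals are 95% intervals of the fit. The members, lists and tests were chosen with earlier results of these data known. Named genes were all members, the 2 genes most like each by Pearson r, the called gene with the largest change in each direction of each list at 60 µg/ml in Apoe-/- cells, and Trem2, Lpl, Plin2, Cd44, Itgb2, Itgav and Treml4. Other names were chosen after their values were seen.

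Replicate numbers paired libraries within a genotype: deviations from group means correlated in all 18 same-number pairs (r 0.18 to 0.69, median 0.41), against a median of -0.35 in 36 other pairs. Alternatives were pseudocounts of 0.01 and 1, no filter, a filter at 1 RPKM, median-ratio rescaling, only the groups compared, no fold limit, the replicate block, a term for Xist-positive libraries, leaving those out, and leaving out each replicate. Python 3.11.15 was used for the rest, and promoters came from the supplied RefSeq table.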

Additional observations from a re-analysis of the deposited data

How the results depend on the processing

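Of the 32 gene values recomputed, in 518 alternatives, 486 kept direction and side of the limits, 10 lost a call, 11 gained one and 11 turned sign. The replicate block moved the call of Gpnmb at 60 µg/ml in Apoe-/- cells (log2 0.49, adjusted p = 0.00014) and no other call among the gene values. Gpnmb was thereby added to the 3 members called there. No count of members or listed genes moved past 1.5-fold with that block, and smaller moves of a count were taken as the same. Without a limit on the fold change 5 members were called at 60 µg/ml in Apoe-/- cells in place of 3, and 2 between the doses in place of 1. Without a filter on low values 0 were called between the doses in Apoe-/- cells. Without the Xist-positive libraries 2 members were called between genotypes in untreated cells and 2 with oxLDL 10 µg/ml, in place of 0. Leaving out each library in turn gave 0 to 2 members called at 60 µg/ml in DKO cells and 0 to 1 between the doses in Apoe-/- cells. The same step turned the sign of 6 values that were not called: Spp1 and Itgax at 60 µg/ml in Apoe-/- cells ran from -0.22 to 0.057 and from -0.45 to 0.28, Itgax in DKO cells from -0.18 to 0.30, Fabp5 at 10 µg/ml in DKO cells from -0.054 to 0.30, and Gpnmb between genotypes from -0.02 to 0.40 untreated and from -0.014 to 0.43 with oxLDL 10 µg/ml. Apart from settings that give their own reason (fewer samples, no fold limit), the cause was not tested. Over all genes, 1786 were called at 60 µg/ml in Apoe-/- cells and 3873 without the fold limit, and between genotypes 27, 11 and 16 (untreated, 10 and 60 µg/ml) became 308, 110 and 74 without the Xist-positive libraries.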
